A study of Homo sapiens with 4 samples.

Results

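The most abundant circular RNAs (circRNAs) of HepG2 cells whose mean level differed by less than 1.5-fold between cells without glucose and normal cells are described here: 72 circRNAs, or 0.617% of the 11666 in the table. HepG2 is an established human liver cancer cell line, listed as wild type. The groups were 2 libraries of cells kept 24 h without glucose and 2 libraries of normal cells. All 4 libraries had ribosomal RNA depleted and messenger RNA digested with RNase R, an exonuclease that degrades linear RNA, before a stranded total RNA library was made. No source says whether replicates were separate cultures, so the spread between them may be technical.

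The members were chosen by measured values, namely their levels and the ratio of the group means, so neither is a finding. Levels are counts per 1000000 circRNA reads of the library (CPM). Of 101 circRNAs with a mean of at least 1000 CPM over the 4 libraries, 7 carry only a running number and 94 an identifier of circBase, a public circRNA catalogue. Among these 94, 5 were listed at 0 in a library. The other 89 had reads in all 4 libraries, and 77 of them had a glucose-free mean above 1/1.5 and below 1.5 times the normal mean. Of these, 5 were set aside by identifier, and 72 were kept. Among the 12 outside the ratio limits, 11 had higher and 1 had lower means without glucose. No identifier was set aside from these 12, which hold hsa_circ_0001445, an identifier also on the list set aside.

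A circRNA forms when the splicing machinery joins a downstream splice donor to an upstream acceptor of the same transcript. The closed loop has no free end and no poly(A) tail, so exonucleases do not readily attack it, and many circRNAs outlive the linear messenger RNA of their gene. Individual circRNAs are known in liver cancer cells for binding microRNAs or proteins, and some are used as stable markers of cell state. The table names circRNAs by identifier only and does not pair them with genes, so no host gene, position or sequence is given for the members.

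Before the levels, 1 feature of the libraries bears on every comparison. Over the 72 circRNAs, glucose-free replicate 2 and normal replicate 1, which carry different labels, were the closest pair of the 6, with a chi-square of the reads of 84.1 on 71 degrees of freedom. The other 5 pairs had 338 to 1381 on 71. The members were chosen for a small difference between groups, which draws pairs across groups together, and a chi-square grows with depth. Over 2211 tested circRNAs with reads in all 4 libraries, not chosen by ratio, this pair was also the closest. Variation in excess of counting was 4.81% there, against 18.7% to 32.85% in the other pairs. Whether the label of either library is wrong was not tested; if it were, each ratio between the groups and each difference between replicates given here would compare other conditions than its labels say. Levels and shares are therefore given library by library, and the number of members within the limits, the calls and the ratios of the most abundant members that leave the limits are also given without either library. Depth was 102420 and 58776 circRNA reads in glucose-free replicates 1 and 2 and 133083 and 166071 in normal replicates 1 and 2. Each member had 49 to 2359 reads in the glucose-free and 114 to 2328 reads in the normal libraries, with medians of 155.5 and 88.5 reads in glucose-free replicates 1 and 2 and 210.5 and 273 reads in normal replicates 1 and 2.

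The members took about 1 in 6 of all circRNA reads in every library. Their share was 17.2% (95% Wilson interval 17.0 to 17.5) and 16.9% (16.6 to 17.2) in glucose-free replicates 1 and 2, and 16.3% (16.1 to 16.5) and 16.5% (16.4 to 16.7) in normal replicates 1 and 2. These intervals cover counting error only. Group means were 17.1% ± 0.204 without glucose and 16.4% ± 0.169 in normal cells (SD, n = 2 each), a ratio of 1.04 that the choice of members holds near 1. The order of the means turned when the denominator was restricted to rows listed in all 4 libraries, to 21.5% without glucose and 22.7% in normal cells. That restriction drops more rows of the deeper normal libraries. Normal replicates 1 and 2 listed 9398 and 9618 circRNAs, against 7231 and 6077 in glucose-free replicates 1 and 2. Without hsa_circ_0084615, the most abundant member, the shares were 15.2% ± 0.329 and 15.1% ± 0.0749 in glucose-free and normal libraries (SD, n = 2 each).

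The share was unevenly held. The 12 most abundant members took 7.81% and 7.26% of reads in glucose-free replicates 1 and 2, and 6.93% and 7.05% in normal replicates 1 and 2. Members 13 to 36 by mean level held 4.99% and 5.01% in the glucose-free and 4.75% and 4.80% in the normal libraries. For the lower 36 members the shares were 4.43% and 4.67% in the glucose-free and 4.62% and 4.69% in the normal libraries. By comparison, the 12 abundant circBase circRNAs outside the limits took 5.33% and 4.14% of glucose-free reads and 3.25% and 3.18% of normal reads, which the limit on the ratio itself sets apart from the members.

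**Figure D1:**
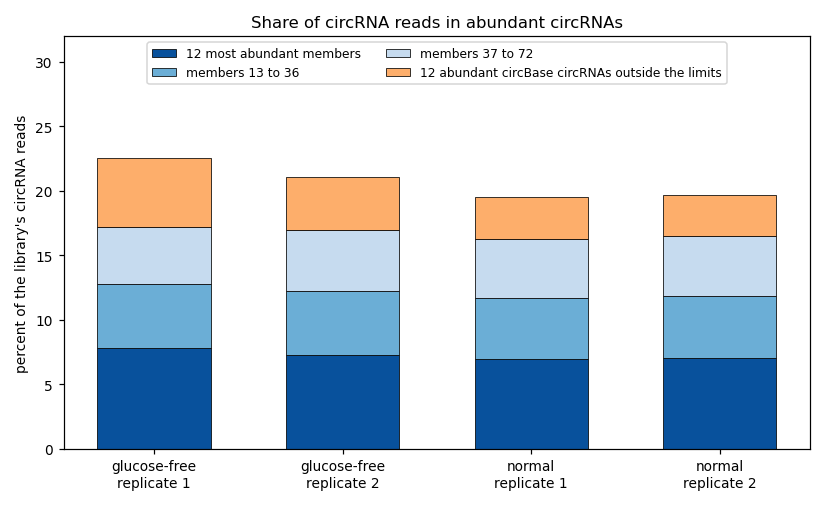
Percent of each library's circRNA reads (vertical axis) in the 12 most abundant members, members 13 to 36, members 37 to 72 and the 12 abundant circBase circRNAs outside the ratio limits, stacked for each of the 4 libraries. The 3 blue segments add up to 16.3% to 17.2% in every library, while the orange segment runs between 3.18% and 5.33%.

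Within the group, hsa_circ_0084615 stood alone at the top and ranked first in all 4 libraries. It reached 23033 and 15483 CPM in glucose-free replicates 1 and 2, against 12684 and 14018 CPM in normal replicates 1 and 2. Both glucose-free libraries lay above both normal libraries, and the 2 glucose-free values lay farther apart than the normal ones. It made up 2.30% and 1.55% of glucose-free reads and 1.27% and 1.40% of normal reads. Its ratio of group means, 1.44, was near the upper limit of the rule. With a glucose-free library left out, it was 1.16 (replicate 1 left out) or 1.73 (replicate 2 left out). With a normal library left out, it was 1.37 (replicate 1) or 1.52 (replicate 2).

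The next circRNA, hsa_circ_0004405, had 5643 and 7962 CPM in the glucose-free and 8701 and 11453 CPM in the normal libraries. Both glucose-free values were below both normal values, and its ratio of 0.675 was the closest of all members to the lower limit. At hsa_circ_0000711 the levels were 8992 and 7520 CPM in the glucose-free and 6680.0 and 5112 CPM in the normal libraries, so the groups lay apart in the other direction, at a ratio of 1.40. In place 4 was hsa_circ_0000231, with 5839 and 6908 CPM in the glucose-free and 6680.0 and 7708 CPM in the normal libraries. Its groups overlapped, and its ratio was 0.886.

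Among places 5 to 8, hsa_circ_0001017 varied the least of all 72 members. It had 4589 and 4645 CPM in the glucose-free and 4651 and 4877 CPM in the normal libraries, so that its highest library was 1.06 times its lowest. Its groups did not overlap, by a narrow margin. The level of hsa_circ_0001461 was 5653 and 5615 CPM in the glucose-free and 5259.9 and 4004 CPM in the normal libraries. Here the glucose-free values lay above both normal values, and normal replicate 2 stood below the rest. For hsa_circ_0001136 the values were 4628 and 4083 CPM in the glucose-free and 4403 and 5191 CPM in the normal libraries. The values of hsa_circ_0006990 were 3798 and 4985 CPM in the glucose-free and 4847 and 4281 CPM in the normal libraries. In the last 2 circRNAs the groups overlapped, and the highest library was 1.27 and 1.31 times the lowest.

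Places 9 to 12 had means between 3393 and 4048 CPM. Levels of hsa_circ_0000567 were 4267 and 3709 CPM in the glucose-free and 3892 and 4323 CPM in the normal libraries. At hsa_circ_0006156 they were 5331 and 4287 CPM in the glucose-free and 3735 and 2710 CPM in the normal libraries. These groups did not overlap, and the ratio of 1.49 was the highest of any member. The level of hsa_circ_0001900 was 2841 and 3777 CPM in the glucose-free and 4230.4 and 3902 CPM in the normal libraries. Its glucose-free values both lay below both normal values, with replicate 1 the lowest. Lastly, hsa_circ_0001400 had 3525 and 3607 CPM in the glucose-free and 3532 and 2908 CPM in the normal libraries, with normal replicate 2 low and the other 3 libraries close together.

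**Figure D2:**
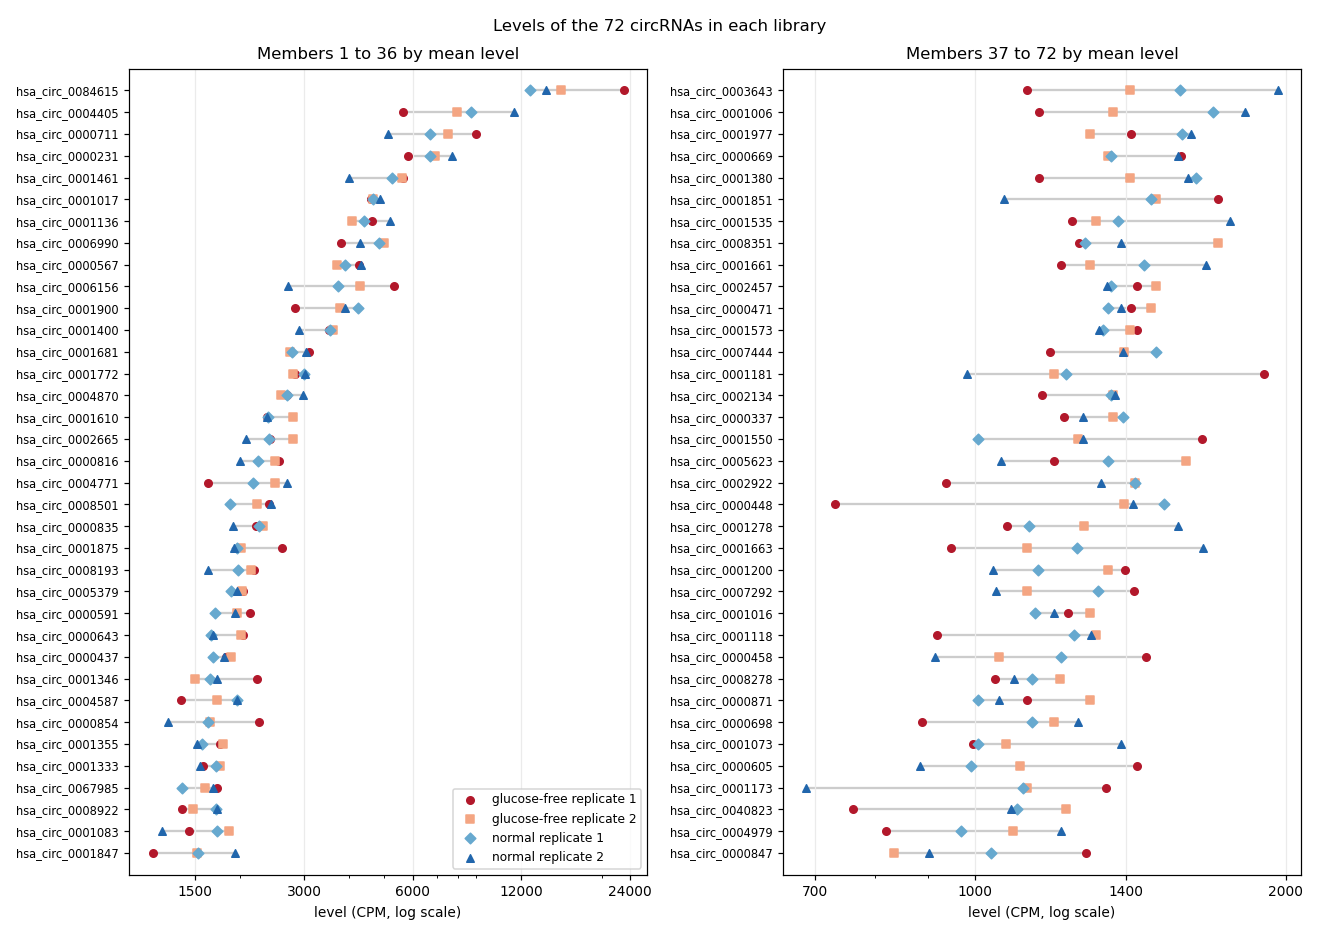
Level of each of the 72 members in CPM (horizontal log axis) in glucose-free replicates 1 and 2 and normal replicates 1 and 2, with members ordered by mean level from top to bottom and a grey line from the lowest to the highest library. The top member, hsa_circ_0084615, lies between 12684 and 23033 CPM, and the lowest value of any member is 686 CPM, at hsa_circ_0001173 in normal replicate 2.

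The ratio of the group means ran from 0.675 to 1.49 over the members, with a median of 1.06, as the rule allows. It was above 1 for 41 members and below 1 for 31, within 1.2-fold for 48 and within 1.1-fold for 24. For members with ratios near 1, the side of 1 depended on the scaling. For TMM scaling, reads were divided by the library's reads in circRNAs that passed the filter on low counts, times a factor that centres the typical circRNA. The median log2 ratio moved from 0.08 to -0.02, a shift of -0.10, and 34 members were above 1 and 38 below. This shift holds both the changed total and the factor, and their parts were not separated. Over all 3964 circRNAs with reads in all 4 libraries the median log2 ratio was 0.18 with CPM and 0.07 with TMM scaling. A change of all circRNAs per cell would not show in either scale, and fewer cells holding a circRNA cannot be told apart from fewer copies per cell.

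The rule tests group means, and it let through members whose libraries lay apart. Both glucose-free libraries were above both normal libraries at 23 members, against 25.2% of the 3964 circRNAs listed in all 4 libraries, and below both at 16 members, against 10.7%. The remaining 33 overlapped. With TMM scaling the numbers were 9 above (12.5%) and 25 below (34.7%), against 20.8% and 14.7% of the 3964. The balance of the directions turned with the scaling among the members but not over the 3964. The members were chosen by this same contrast, and nothing is read from these counts.

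The test of cells without glucose against normal cells called no member. With edgeR's quasi-likelihood test, all 72 passed its filter on low counts, and 0 of 72 were past an adjusted p of 0.05, where the background was 0% of 2803 circRNAs. The smallest adjusted p of a member was 0.999. Without adjustment, 2 members had a p under 0.05, against 2.32% of all tested (65 circRNAs); these were hsa_circ_0001006 and hsa_circ_0004405, both with lower means without glucose. DESeq2 and limma each called 0 of all circRNAs tested, and so 0 members. This is no support for equal levels, since the members were chosen for small ratios. For hsa_circ_0004405 the call depended on the settings. Among rows above 0 in each library, it passed with the replicate number as a block (edgeR log2 fold change -0.67, adjusted p = 0.00116). The block fit called 17 of 2131 circRNAs and 1 of the 72 members. With reads required in all remaining libraries and glucose-free replicate 2 left out, the log2 fold change of hsa_circ_0004405 was -0.90. That of hsa_circ_0000448 was -1.07. That fit has 1 glucose-free library, assumed to vary like the normal pair, and at hsa_circ_0000448 it keeps the library that stood apart, at 732 CPM, and leaves out the one at 1395 CPM.

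How many members kept to the limits depended on which library was left out. With glucose-free replicate 2 left out, 60 of the 72 members remained within 1.5-fold, with 6 above and 6 below. Without normal replicate 1 it was 63, with 6 above and 3 below. By contrast, 72 kept to the limits without glucose-free replicate 1, and 71 without normal replicate 2. Of the 12 most abundant members, 4 left the limits without glucose-free replicate 2 or normal replicate 1. For hsa_circ_0000711 the ratio was 1.53 without the first and 1.61 without the second of these libraries, and for hsa_circ_0006156 it was 1.65 and 1.77. At hsa_circ_0004405 it was 0.560 and 0.594, while hsa_circ_0084615 left the limits without glucose-free replicate 2 and not without normal replicate 1. The other 8 had ratios between 0.699 and 1.41 without either.

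At the edges of the rule, hsa_circ_0000847 (1013 CPM) and hsa_circ_0004979 (1022 CPM) had the lowest means inside, while hsa_circ_0000002 (999 CPM) and hsa_circ_0001522 (988 CPM) fell just under the minimum. By ratio, hsa_circ_0006156 at 1.49 and hsa_circ_0084615 at 1.44 were the last inside the upper limit, and hsa_circ_0008817 at 1.53 and hsa_circ_0001445 at 1.58 the first outside. On the lower side hsa_circ_0004405 at 0.675 and hsa_circ_0001663 at 0.710 were the last inside, and hsa_circ_0007158 at 0.625 was the 1 abundant circRNA outside. Among circBase circRNAs with reads in all 4 libraries, 86.5% of the 89 with at least 1000 CPM were within the ratio limits, as were 85.1% of 348 with 300 to 1000 CPM and 75.0% of 1014 with 100 to 300 CPM.

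Ranks among all circRNAs of a library held most firmly at the top. Of the 72 members, 56 were within the top 100 of every library, 26 within the top 50 of every library, and each was within the top 100 of at least 1. The median distance between a member's best and worst rank was 8 places for members 1 to 24, 29.5 for members 25 to 48 and 51.5 for members 49 to 72. Ranks also depend on how closely levels are spaced, so these distances do not by themselves show steadier levels. The median ratio of highest to lowest level was 1.30 for members 1 to 24, 1.31 for members 25 to 48 and 1.47 for members 49 to 72.

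The steadiest ranks belonged to hsa_circ_0084615, first in each library, and to hsa_circ_0000816, whose rank was 29 in both glucose-free libraries and 28 and 29 in normal replicates 1 and 2. Ranks of hsa_circ_0000231 were 6 and 7 in the glucose-free and 6 and 4 in the normal libraries, and those of hsa_circ_0001017 were 13 and 12 in the glucose-free and 12 and 10 in the normal libraries. All 4 stayed within 3 places. So did hsa_circ_0001400, which ranked 21 and 21 in the glucose-free and 18 and 21 in the normal libraries. At the other end, hsa_circ_0000448 ranked 163 and 67 in the glucose-free and 54 and 57 in the normal libraries, with glucose-free replicate 1 apart from the rest. For hsa_circ_0001173 the ranks were 72 and 94 in the glucose-free and 94 and 179 in the normal libraries, with normal replicate 2 apart. The ranks of hsa_circ_0001663 were 120 and 94 in the glucose-free and 80 and 48 in the normal libraries, and those of hsa_circ_0000847 were 76 and 141 in the glucose-free and 99 and 119 in the normal libraries.

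**Figure D3:**
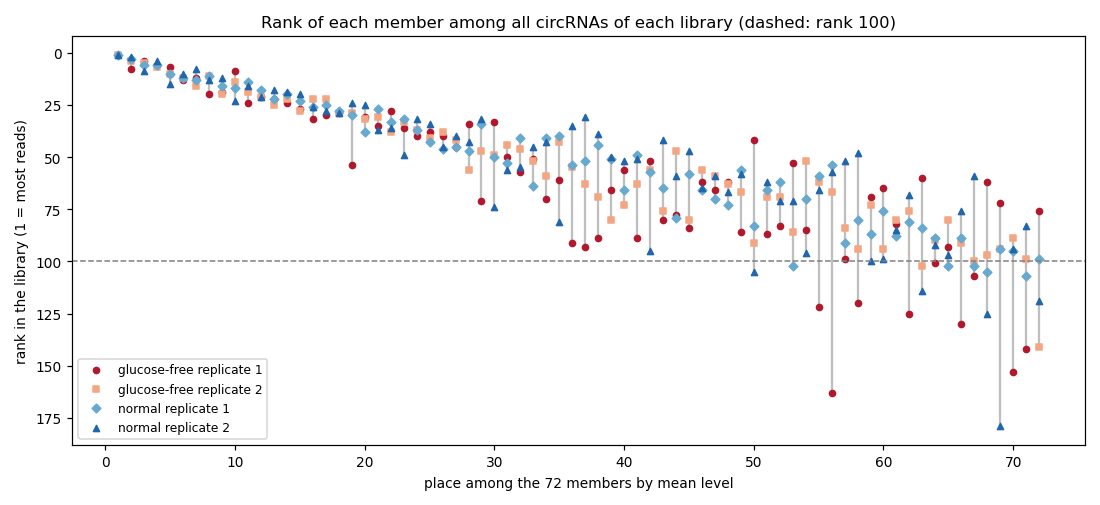
Rank of each member among all circRNAs of a library (vertical axis, 1 at the top) against its place among the 72 members by mean level (horizontal axis), for glucose-free replicates 1 and 2 and normal replicates 1 and 2, with grey lines from best to worst rank. The lines lengthen to the right, up to the 109 places of hsa_circ_0000448.

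Differences between replicates were not used by the rule, apart from their share in the means. The median member differed by 1.18-fold between the glucose-free replicates and 1.12-fold between the normal replicates, with median absolute log2 ratios of 0.24 and 0.16. Counting alone gives a log2 ratio a standard deviation of 0.19 for the median member in the glucose-free pair, whose libraries were shallower, and of 0.13 in the normal pair. A standard deviation is another measure than a median absolute ratio, so these values cannot be compared directly. The glucose-free pair had the larger difference at 45 of the 72 members. As a coefficient of variation, the spread had a median of 11.6% (0.217% to 44.1%) between glucose-free and 7.72% (0.120% to 33.5%) between normal libraries (n = 2 each).

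Over all members together, the replicates differed by more than counting error, with chi-squares of the reads of 353 for the glucose-free and 365 for the normal pair on 71 degrees of freedom. Member by member, the exact 95% binomial interval of the ratio of replicate 2 to replicate 1 covers counting error only. By construction, counting error alone makes it miss in at most 5% of cases. It left out 1 at 20 members in the glucose-free pair and at 28 members in the normal pair. An interval that holds 1 does not show equal levels. Replicates differed by over 1.5-fold at 6 members without glucose and at 1 member in normal cells. They were within 1.1-fold at 25 members without glucose and at 30 in normal cells. Neither replicate was the higher one throughout, with replicate 2 above replicate 1 at 41 members in the glucose-free and at 38 in the normal pair.

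Several members were nearly identical between replicates. In glucose-free replicates 1 and 2, hsa_circ_0005379 stood at 2031 and 2025 CPM, a ratio of 0.997 (interval 0.789 to 1.26), beside 1879 and 1957 CPM in the normal libraries. At hsa_circ_0000643 the glucose-free values were 2031 and 2008 CPM and the normal ones 1661 and 1680.0 CPM. This circRNA was steady within each group and 1.21 times as high without glucose, and its groups did not overlap. The steadiest between normal replicates was hsa_circ_0004587, with 1367 and 1718 CPM in the glucose-free and 1954 and 1957 CPM in the normal libraries, a ratio of the normal replicates of 1.002 (interval 0.848 to 1.18). Levels of hsa_circ_0001772 were 2841 and 2790.3 CPM in the glucose-free and 3006 and 3017 CPM in the normal libraries, within 1.08-fold in all. The remaining 2 of the steadiest in normal cells were hsa_circ_0008922, with 1377 and 1480.2 CPM in the glucose-free and 1713 and 1722 CPM in the normal libraries, and hsa_circ_0001610, with 2363 and 2790.3 CPM in the glucose-free and 2389 and 2372 CPM in the normal libraries.

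Other members moved between replicates by more than their groups differed. The widest was hsa_circ_0000448, with 732 and 1395 CPM in the glucose-free and 1525 and 1421 CPM in the normal libraries. Its glucose-free replicates differed 1.91-fold (interval 1.38 to 2.64), and replicate 2 lay beside the normal values. At hsa_circ_0040823 the levels were 762 and 1225 CPM in the glucose-free and 1097 and 1084 CPM in the normal libraries, again with only glucose-free replicate 1 low. The reverse held for hsa_circ_0001181, with 1904 and 1191 CPM in the glucose-free and 1225 and 982 CPM in the normal libraries, where glucose-free replicate 1 was high. Values of hsa_circ_0000847 were 1279 and 834 CPM in the glucose-free and 1037 and 903 CPM in the normal libraries.

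In the normal pair the widest was hsa_circ_0001173, with 1338 and 1123 CPM in the glucose-free and 1112 and 686 CPM in the normal libraries. Normal replicate 2 was 0.617 times replicate 1 (interval 0.479 to 0.793), and normal replicate 1 lay close to glucose-free replicate 2. For hsa_circ_0001083 the levels were 1445 and 1854.5 CPM in the glucose-free and 1721 and 1216 CPM in the normal libraries. Those of hsa_circ_0001278 were 1074 and 1276 CPM in the glucose-free and 1127 and 1572 CPM in the normal libraries, and those of hsa_circ_0001851 were 1718 and 1497 CPM in the glucose-free and 1480.3 and 1066 CPM in the normal libraries. In each of these, normal replicate 2 was the highest or lowest of the 4 libraries.

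**Figure D4:**
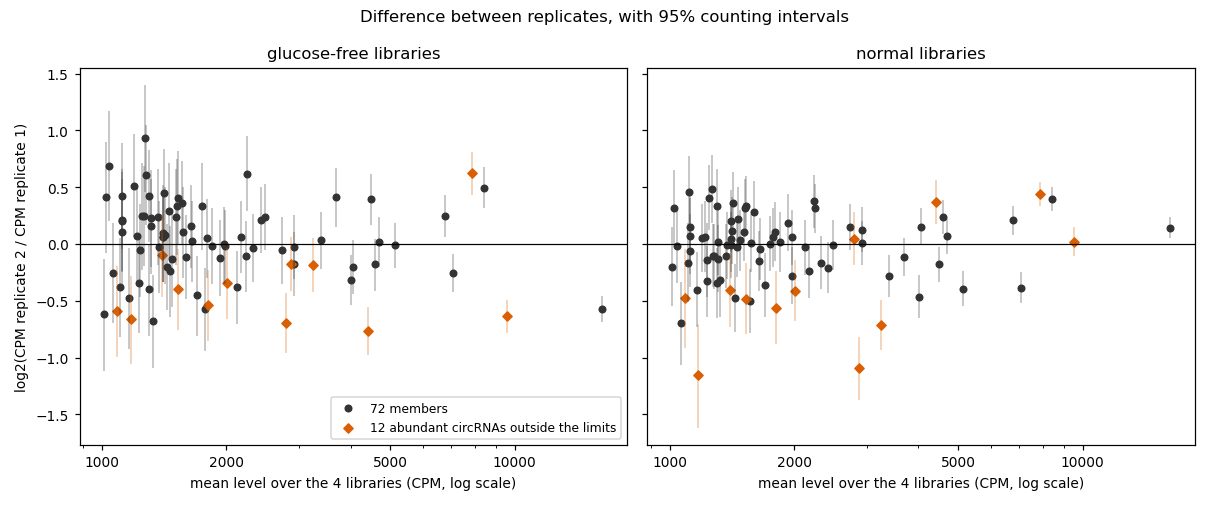
The log2 ratio of CPM in replicate 2 to replicate 1 (vertical axis) against mean level in CPM (horizontal log axis) for the glucose-free pair (left) and the normal pair (right), with the 72 members in black, the 12 abundant circRNAs outside the ratio limits in orange and vertical lines for 95% counting intervals. Members lie on both sides of 0 with medians of 0.06 without glucose and 0.01 in normal cells, and the medians of the orange points are -0.47 and -0.45.

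Abundant circRNAs outside the ratio limits were less alike between replicates. Their median replicate difference was 1.48-fold in the glucose-free and 1.37-fold in the normal pair (12 circRNAs), against 1.18-fold and 1.12-fold for the members. Their median counting standard deviation was 0.14 on the log2 scale in each pair. The counting interval left out 1 at 9 of these 12 in the glucose-free and at 10 of 12 in the normal pair. This difference was not tested, because circRNAs of the same libraries are not replicates and a large replicate difference also widens the ratio of the means. Among circBase circRNAs with 300 to 1000 CPM and reads in all 4 libraries, of any ratio, the median difference was 1.249-fold in the glucose-free and 1.180-fold in the normal pair. Their median counting standard deviations, again another measure, were 0.35 and 0.25 on the log2 scale.

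Over all 4 libraries, the highest level of a member was a median of 1.36 times its lowest, from 1.06 at hsa_circ_0001017 to 2.08 at hsa_circ_0000448. It was under 1.5 times at 50 members, under 1.2 times at 18, and over 2 times at 2, hsa_circ_0000448 and hsa_circ_0004405. None of the 12 abundant circRNAs outside the ratio limits was under 1.5 times, as their choice by ratio requires.

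Compared library by library, members differed least between glucose-free replicate 2 and normal replicate 1 and most between glucose-free replicate 1 and normal replicate 2. The median difference was 1.11-fold in the first of these pairs, where 0 members differed by over 1.5-fold, and 1.30-fold in the second, where 16 did. The other pairs across groups had medians of 1.19-fold (both replicates 1) and 1.16-fold (both replicates 2). The common dispersion over the members (edgeR), given here as its root, a percent variation in excess of counting, was 4.92% in the closest pair and 22.5% in the farthest. Between the replicates it was 13.8% without glucose and 11.2% in normal cells. Over 2211 tested circRNAs with reads in all 4 libraries the values were 21.3% between glucose-free and 18.7% between normal replicates, and 4.81% in the closest pair.

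**Figure D5:**
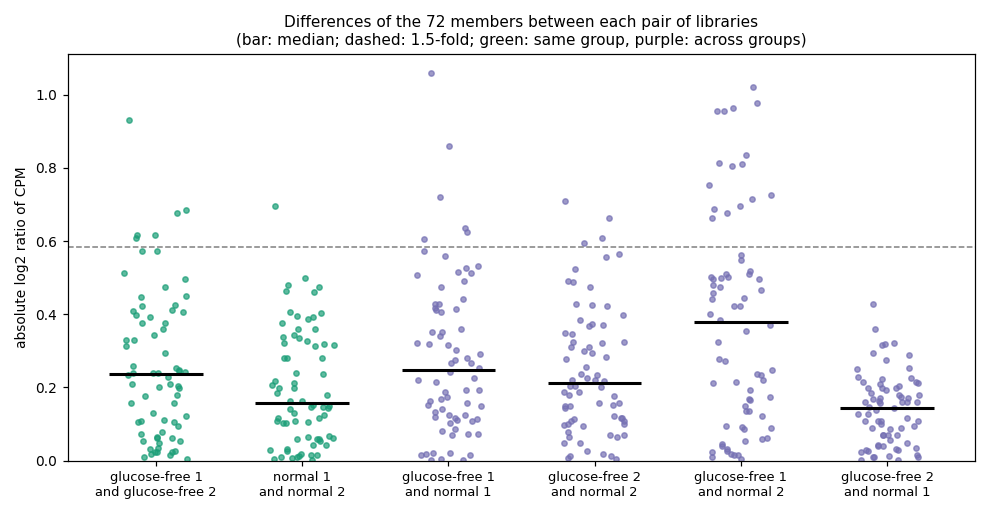
Absolute log2 ratio of CPM for each of the 72 members (points, vertical axis) in the 6 pairs of libraries (horizontal axis), with black bars at the medians and a dashed line at 1.5-fold. The lowest median, 0.14, belongs to glucose-free replicate 2 with normal replicate 1, and the highest, 0.38, to glucose-free replicate 1 with normal replicate 2.

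For many members these same 2 libraries marked the ends of the range. Glucose-free replicate 1 and normal replicate 2 were the highest and lowest library, in either order, at 32 of 72 members, with glucose-free replicate 1 on top at 15 and normal replicate 2 on top at 17. The share was 44.4% among the members, 75.0% among the 12 abundant circRNAs outside the limits, and 28.7% among the 348 circBase circRNAs with 300 to 1000 CPM. These shares are not like for like. None of the 12 had overlapping groups, which their choice by ratio favours, so their highest and lowest libraries lay in different groups. This raises their share. The 348 carried larger counting error than the members. Glucose-free replicate 2 was the highest library at 19 members and the lowest at 9, and normal replicate 1 the highest at 5 and the lowest at 11.

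The order of the members by level was kept best between glucose-free replicate 2 and normal replicate 1 and least between glucose-free replicate 1 and normal replicate 2. Spearman's rho over the 72 members, given as a description of circRNAs that share libraries and a narrow range of levels, was 0.94 in the first and 0.68 in the second of these pairs. It was 0.82 between the glucose-free and 0.89 between the normal replicates.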

How the data were processed

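The 4 libraries came as 1 table with a count and a CPM column for each. Counts are whole read numbers per circRNA that the authors deposited without normalization; no 1 occurs among them, and the smallest value above 0 is 2. The deposited CPM columns are headed tpm but equal the count over the column total, times 1000000, so they hold no length term. The submitters' processing notes name hg19 and DESeq2; aligner and circRNA caller: not given in the sources used here.

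Levels, shares, ranks and replicate ratios were computed from these columns. Intervals are Wilson (shares) and exact binomial (ratios). Glucose-free and normal libraries were compared over the whole table with edgeR 4.0.16 (R 4.3.3): TMM, filterByExpr, quasi-likelihood test, Benjamini-Hochberg adjustment, threshold 0.05, with library sizes summed over the circRNAs that passed the filter. DESeq2 1.42.0 and limma 3.58.1 on log2(CPM + 1) were alternatives, with other filters, scalings, a replicate block and each library left out.

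The members, lists and alternatives were chosen with earlier results of these data known. Named were the 12 highest means, the 4 smallest and 4 largest replicate differences per group and rank ranges, and the 2 nearest each limit, where only 1 lay outside the lower one; hsa_circ_0001006 was named after its p was seen.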

Additional observations from a re-analysis of the deposited data

How the results depend on the processing

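DESeq2, limma and edgeR with RLE scaling called 0 of all circRNAs tested, and so 0 members. The same held for edgeR with no scaling beyond depth, all rows kept, a minimum of 10 reads in 2 libraries, and rows listed in all 4 libraries. The replicate block gave 0 of all circRNAs, and 17 of 2131, of them 1 of the 72 members, when limited to those rows. Deviations of same-numbered libraries correlated at -0.20, and crossed numbers as the block, chosen after seeing the data, gave 0 calls with and without that limit. Leaving out 1 library gave 0 to 71 calls, none of them a member: 71 without glucose-free replicate 2 and 24 without glucose-free replicate 1. Limited to reads in all remaining libraries, an alternative added later, it gave 0 to 65 calls with 0 to 2 members: 65 without glucose-free replicate 2 and 16 without normal replicate 1. In each of these fits 1 group has a single library, which takes its spread from the pair in the other group, so a call can rest on that library alone. The cause was not tested.

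The rule gave 190 circRNAs with a minimum of 500 CPM and 22 with 2000 CPM, 53 with a tighter ratio limit and 79 with a limit of 2, and 61 to 82 with 1 library left out. The median log2 ratio of the members, 0.08 over all libraries, was lower with any 1 library left out, at 0.02 to 0.05. As a share of circBase reads the members held 20.1% without glucose and 19.6% in normal cells; of reads in rows listed in all 4 libraries, 21.5% and 22.7%; without the most abundant member, 15.2% and 15.1%. Expressed as a dispersion, the spread between replicates was 0.0191 without glucose and 0.0126 in normal cells. Depth limits the lowest members, with 49 reads in glucose-free replicate 2 at hsa_circ_0000847.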
